A study of Mus musculus with 12 samples.

Results

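Circadian clock genes were described in epididymal white adipose tissue (eWAT) of mice on 4 diets. The genes were chosen by symbol. They were *Arntl*, *Clock*, *Npas2*, *Per1*, *Per2*, *Per3*, *Cry1*, *Cry2*, *Dbp* and *Tef*. All 10 were found among the 22983 genes of the table, and all 10 were among the 12801 genes that were tested.

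Male C57BL/6J mice, 21 weeks old, had been fed for 16 weeks with a normal diet (ND), a high-fat diet (HFD), the HFD with an ethanol extract of chrysanthemum leaf at 1.5% of its weight (CLE) or the HFD with luteolin, a flavonoid of this plant, at 0.003% of its weight (LU). Each group had 3 mice, picked by the study as representative, which gave 12 libraries from whole tissue. The mice were kept under a cycle of light and dark and were fasted before they were killed, and the time of day of killing is not given in the sources used here. A difference in the level of a rhythmic gene and a difference in its timing therefore cannot be told apart.

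The clock is a feedback loop of transcription. BMAL1, the product of *Arntl*, pairs with CLOCK or its relative NPAS2 and activates genes through E-boxes, among them those for the PER and CRY proteins, which return to the nucleus and repress the pair. DBP and TEF are output factors that bind D-boxes, and REV-ERB receptors repress *Arntl* in a second loop. White adipose tissue is known to hold such a clock, and many of its metabolic genes cycle over the day.

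The values are FPKM, the fragments mapped to a transcript scaled for its length and for the size of the library, which the authors deposited for each transcript and which were summed per gene. The test was limma, fitted once to the 12 libraries on the log2(FPKM + 1) scale, on which the changes of weakly expressed genes look smaller than they are. A call needed a fold change over 1.5 as well as a p under 0.05 after Benjamini-Hochberg adjustment over all tested genes. Errors are SD over 3 mice for levels and standard errors (SE) for log2 fold changes. An exact permutation test of 3 against 3 mice cannot give a two-sided p under 0.1, so single genes rest on limma. Read counts are not part of these values, and the sequencing depth of each library is unknown.

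The whole tissue differed between the groups in its cell markers, and these levels stand beside every result below. The summed level of 6 adipocyte markers (*Adipoq*, *Plin1*, *Cidec*, *Fabp4*, *Lipe* and *Cfd*) was 31131 to 33035 FPKM in ND, 14811 to 16869 in HFD, 24031 to 26631 in CLE and 22920 to 28076 in LU. The summed level of 6 macrophage markers (*Adgre1*, *Cd68*, *Csf1r*, *Itgam*, *Lyz2* and *Mrc1*) was 305 to 478 FPKM in ND, 2184 to 2508 in HFD, 552 to 815 in CLE and 876 to 998 in LU. All 6 adipocyte markers were called lower and all 6 macrophage markers higher in HFD than in ND. Against HFD, the adipocyte markers called higher were 6 of 6 in CLE and 3 of 6 in LU, and all 6 macrophage markers were called lower in both. The summed level of 4 endothelial markers (*Pecam1*, *Cdh5*, *Tie1* and *Kdr*) was 195 to 321 FPKM in ND, 156 to 265 in HFD, 247 to 366 in CLE and 282 to 340 in LU, with none called between HFD and ND and with 2 called higher in CLE and 3 in LU than in HFD. The summed level of 3 mesothelial markers (*Msln*, *Upk3b* and *Lrrn4*), all called lower in HFD than in ND, was 4.80 to 42.8 FPKM in ND, 0.323 to 3.61 in HFD, 4.77 to 8.56 in CLE and 3.84 to 11.9 in LU. The part of these markers in the clock gene values was not tested, and fewer cells of a type cannot be told apart from less RNA per cell. Of the other tissues checked, 3 liver markers (*Alb*, *Apoa2* and *Serpina1a*) summed to 15.5 to 31.7 FPKM in ND, 2.43 to 10.1 in HFD, 8.12 to 25.9 in CLE and 5.09 to 7.51 in LU, and 2 of them were called lower in HFD than in ND and 1 higher in CLE than in HFD. The epididymis marker *Lcn5* was at 0 in all 12 libraries, but with *Crisp1* and *Adam7* the sum was 0.388 to 5.13 FPKM in ND, 0.0487 to 0.364 in HFD, 0 to 0.332 in CLE and 0.0508 to 3.31 in LU. The 2 skeletal muscle markers in the table summed to 8.29 FPKM in CLE mouse 11, 2.02 in HFD mouse 12 and at most 0.0521 in the 10 others. The 3 B cell markers summed to at most 4.50 FPKM. The titles of 4 libraries (LU mouse 2, CLE mouse 4 and ND mice 3 and 4) carry a letter R, whose meaning is not given, and no HFD library carries it.

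Promoter sequences are shown for *Per3*, *Cry1* and *Tef*, the members with an adjusted p under 0.05 between HFD and ND that had one. The choice rests on that p and not on motifs, which were found in other members as well. RefSeq (GRCm38.p6) gave windows of 250 bases before the start for 9 of the 10 members, 14 windows in all, and none for *Per2*. Motifs were searched on both strands as exact letters. The *Per3* window, chr4:151044666-151044915 on the minus strand, holds the D-box TTATGTAA 205 and 158 bases before the start. The *Cry1* window, chr10:85185055-85185304 on the minus strand, holds the E-box CACGTG 60 bases before the start and, 79 bases before it on the other strand, the E-prime box CACGTT. The second *Tef* window, chr15:81811164-81811413 on the plus strand, lies before the start of the transcript with the most FPKM and holds an E-box 138 bases before it. Capitals mark these motifs, and each sequence reads 5′ to 3′ along the gene.
Per3: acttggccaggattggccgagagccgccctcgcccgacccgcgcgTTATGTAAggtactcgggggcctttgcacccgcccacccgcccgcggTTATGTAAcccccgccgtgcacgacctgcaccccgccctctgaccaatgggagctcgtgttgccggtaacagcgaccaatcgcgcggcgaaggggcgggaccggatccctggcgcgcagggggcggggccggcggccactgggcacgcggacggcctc
Cry1: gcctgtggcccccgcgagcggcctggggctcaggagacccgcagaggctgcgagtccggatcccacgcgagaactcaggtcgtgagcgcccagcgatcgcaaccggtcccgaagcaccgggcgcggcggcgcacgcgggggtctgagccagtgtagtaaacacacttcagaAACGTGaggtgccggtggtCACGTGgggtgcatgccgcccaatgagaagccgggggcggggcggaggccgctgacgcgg
Tef: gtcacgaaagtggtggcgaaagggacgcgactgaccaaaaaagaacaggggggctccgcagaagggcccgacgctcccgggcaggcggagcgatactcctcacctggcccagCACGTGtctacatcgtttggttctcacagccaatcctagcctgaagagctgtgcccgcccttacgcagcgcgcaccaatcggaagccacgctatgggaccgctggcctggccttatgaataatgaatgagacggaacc

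Of 32851 RefSeq windows of this length, 0.82% hold the D-box, 6.02% the E-box and 3.85% the E-prime box. The E-box was also found in the first *Per1* window, 166 bases before the start, and in the first *Tef* window, 127 bases before. The *Cry2* window holds an E-prime box on the other strand, 166 bases before the start. Neither the core of the ROR element TAGGTCA, found in 2.23% of all windows, nor the cAMP response element TGACGTCA, found in 1.55%, was in a member's window. None of the 5 motifs was found in the windows of *Arntl*, *Clock*, *Npas2* and *Dbp*. Variants of these letters and bases outside the windows were not searched. The search therefore cannot tell whether a member without a match lacks such elements. A match of letters is a description of the sequence and not of binding.

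The members differed widely in level. Over the 12 libraries, mean FPKM was 35.9 for *Tef*, 23.5 for *Cry2*, 23.0 for *Per1*, 15.2 for *Clock*, 12.0 for *Per3*, 7.42 for *Arntl*, 7.25 for *Per2*, 4.52 for *Cry1*, 3.29 for *Dbp* and 2.17 for *Npas2*. FPKM are scaled to transcript length, but each level here is a sum over transcript models. The order of the genes depends on this summing. With the transcript of highest mean alone, *Cry2* was at 18.4 FPKM, *Tef* at 17.9, *Clock* at 9.75, *Per1* at 7.40 and *Arntl* at 7.09. *Per2* was then at 4.6, *Cry1* at 4.49, *Per3* at 3.1, *Dbp* at 2.44 and *Npas2* at 2.01. By the sums, *Tef* was above *Cry2* in 12 of 12 libraries, while *Arntl* was above *Per2* in 4 of 12. *Cry2* was above *Per1* in 9 of 12 libraries and *Cry1* above *Dbp* in 9 of 12, so these neighbours overlapped as well. The neighbours *Per1* and *Clock*, *Clock* and *Per3*, and *Per2* and *Cry1* kept their order in 11 of 12 libraries each, and *Per3* with *Arntl* and *Dbp* with *Npas2* in 10 of 12.

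The spread between libraries also differed among members. *Per1* had the widest range of the 10, with a highest library 4.31 times the lowest. It was 2.74 times for *Dbp*, 2.63 times for *Per3*, 2.38 times for *Per2*, 2.15 times for *Cry1* and 1.99 times for *Arntl*. *Clock*, which cycles little in many tissues, had the narrowest range at 1.31 times.

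**Figure D1:**
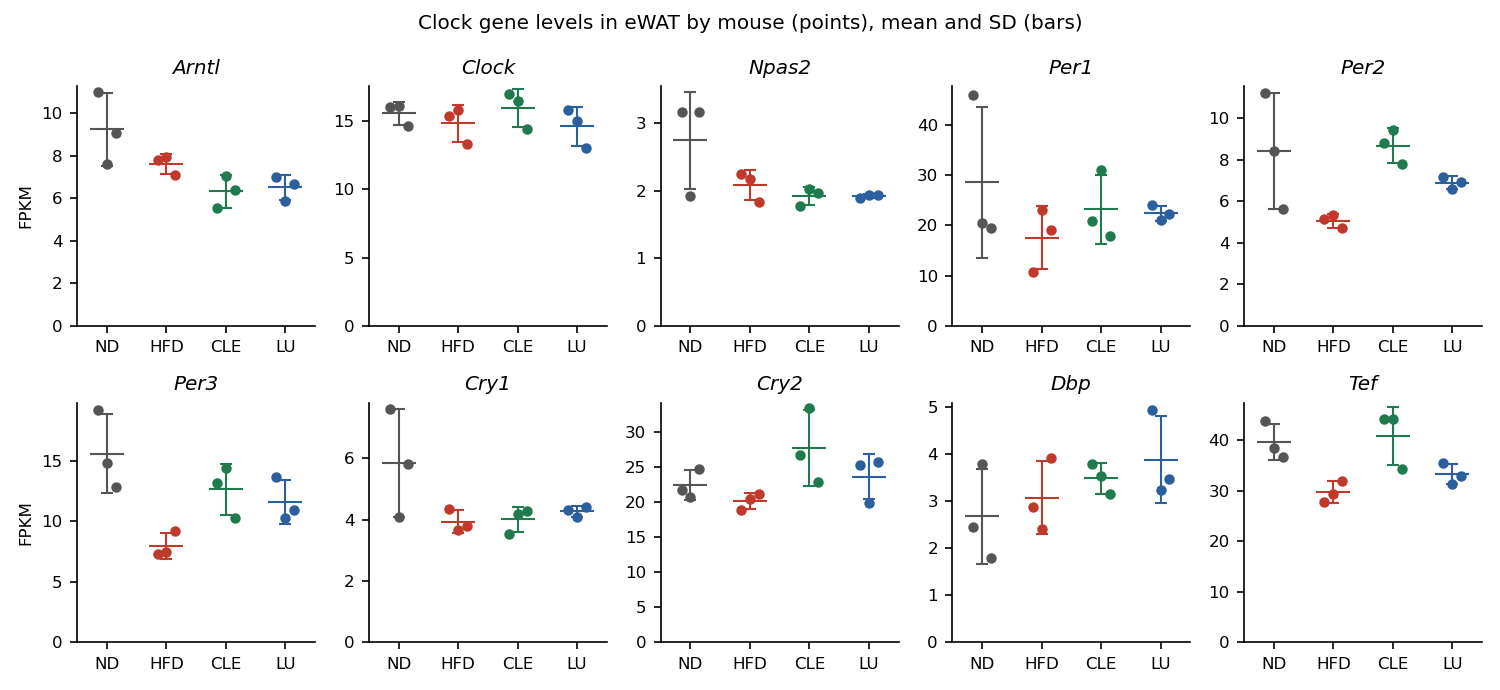
FPKM (vertical axis, from 0) of the 10 clock genes in each group, with 1 point per mouse, a horizontal line at the mean and bars of 1 SD (n = 3). The 3 HFD mice lie below all ND, CLE and LU mice for Per2 and Per3, and the ND mouse with 46.0 FPKM of Per1 stands above the other mice.

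The comparison of HFD with ND asks what the high-fat diet does to the clock genes of the fat. *Per2* and *Per3*, both repressors of the loop, fell in HFD, and these 2 of the 10 members were the only ones called. Among all tested genes 25.7% were called in either direction and 10.8% were called lower, and 2 of 10 genes is too small a number to set the members apart from this. *Tef* and *Cry1* were also lower with an adjusted p under 0.05 but with a fold change under 1.5, which made 4 of 10 members with such a p, against 50.5% of all genes. The median log2 fold change of the 10 members was -0.33, that of all genes was -0.02, and 9 of the 10 values were negative. Without regard to sign, the median size was 0.33 for the members and 0.32 for all genes, so the members did not change more than other genes.

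*Arntl* (ENSMUSG00000055116.8, chr7:113207465-113314126, plus strand, GRCm38) encodes BMAL1, the activator that the loop cannot run without. Its FPKM were 11, 7.62 and 9.07 in ND, 7.80, 7.96 and 7.07 in HFD, 5.53, 7.05 and 6.38 in CLE, and 7.0, 5.85 and 6.68 in LU. The ND mice were the highest on average and overlapped with HFD through ND mouse 3, while all CLE and LU mice were below all HFD and ND mice. No difference from HFD passed the test. The log2 fold change was -0.24 (SE 0.13, 95% interval -0.51 to 0.04, adjusted p = 0.13) for HFD against ND and -0.24 (SE 0.13, interval -0.51 to 0.04, adjusted p = 0.17) for CLE against HFD. For LU against HFD it was -0.20 (SE 0.13, interval -0.47 to 0.07, adjusted p = 0.26).

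*Clock* (chr5:76209868-76304792, minus strand) and *Npas2* (chr1:39193731-39363236, plus strand) encode the alternative partners of BMAL1. *Clock* was flat, at 16.0, 16.1 and 14.6 FPKM in ND, 15.4, 15.8 and 13.3 in HFD, 17.0, 16.5 and 14.4 in CLE, and 15.8, 15 and 13.0 in LU. The 4 groups overlapped, and the log2 fold change of HFD against ND was -0.07 (SE 0.10, interval -0.29 to 0.15). *Npas2* was at 3.16, 1.92 and 3.16 FPKM in ND, 2.24, 2.17 and 1.83 in HFD, 1.77, 2.03 and 1.96 in CLE, and 1.89, 1.94 and 1.94 in LU. Of the ND mice, 2 of 3 were above every other mouse, and ND mouse 3 was among the others. Its log2 fold change of HFD against ND was -0.27 (SE 0.13, interval -0.54 to 0.01, adjusted p = 0.099). Of the *Npas2* sum, 97.0% came from transcripts assembled from the reads and not from annotated ones.

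*Per1* (chr11:69095217-69109960, plus strand), which also responds quickly to glucocorticoids and other signals, had the least certain values. It was at 46.0, 20.5 and 19.4 FPKM in ND, 10.7, 23.1 and 19.0 in HFD, 20.8, 31.0 and 17.9 in CLE, and 24.0, 21.1 and 22.2 in LU. ND mouse 2 stood above all others, HFD mouse 12 below all others, and every pair of groups overlapped. The log2 fold change of HFD against ND was -0.63 (SE 0.33, interval -1.35 to 0.10, adjusted p = 0.14), with the largest SE of the 10 members.

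*Per2* (chr1:91415982-91459324, minus strand) is the PER gene most needed for rhythm in mice. Its FPKM were 11.2, 8.43 and 5.61 in ND, 5.13, 5.34 and 4.70 in HFD, 8.77, 9.44 and 7.78 in CLE, and 7.17, 6.57 and 6.94 in LU. The 3 HFD mice were below the 9 others, though ND mouse 4 was close to them. The mean was 8.40 ± 2.78 (SD, n = 3) in ND and 5.06 ± 0.326 in HFD. *Per2* fell by 0.59 on the log2 scale (SE 0.17, interval -0.97 to -0.22, adjusted p = 0.014 in limma). The call was lost without ND mouse 2 (-0.38), without ND mouse 3 (-0.57, adjusted p = 0.038) and without HFD mouse 18 (-0.55, adjusted p = 0.046), where the fold change was under 1.5. It was also lost with array weights (-0.42, adjusted p = 0.033) and with the transcript of highest mean (-0.56, adjusted p = 0.059).

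*Per3* (chr4:151003652-151044665, minus strand), a PER gene that is not essential for rhythm in mice, had the lowest HFD level relative to ND of the 10. It was at 19.2, 14.8 and 12.8 FPKM in ND, 7.31, 7.43 and 9.17 in HFD, 13.2, 14.4 and 10.3 in CLE, and 13.7, 10.3 and 10.9 in LU. The 3 HFD mice were below the 9 others with a gap. The mean was 15.6 ± 3.30 (SD, n = 3) in ND and 7.97 ± 1.04 in HFD. *Per3* fell by 0.88 on the log2 scale (SE 0.16, interval -1.24 to -0.52, adjusted p = 0.001 in limma), and the range was -1.0 to -0.73 when each library was left out.

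The *Per3* sum was spread over 18 transcript models, and the largest held 25.9% of it. Annotated transcripts held 27.1% and assembled ones 72.9%. The annotated transcripts summed to 5.71, 4.24 and 2.84 FPKM in ND, 1.75, 2.44 and 3.93 in HFD, 3.07, 1.85 and 3.14 in CLE, and 2.92, 2.95 and 4.07 in LU, so that the groups overlapped. The assembled ones summed to 13.5, 10.5 and 9.97 in ND, 5.56, 4.98 and 5.24 in HFD, 10.2, 12.5 and 7.17 in CLE, and 10.8, 7.35 and 6.78 in LU, where the HFD mice were below all others. With annotated transcripts alone, the log2 fold change of HFD against ND was -0.51 (SE 0.25, adjusted p = 0.12), and that of *Per2* was -0.56 (SE 0.22, adjusted p = 0.057). *Per3* lies within the span that GENCODE gives to *Camta1* on the same strand, and *Camta1* was at a mean of 4.76 FPKM.

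**Figure D2:**
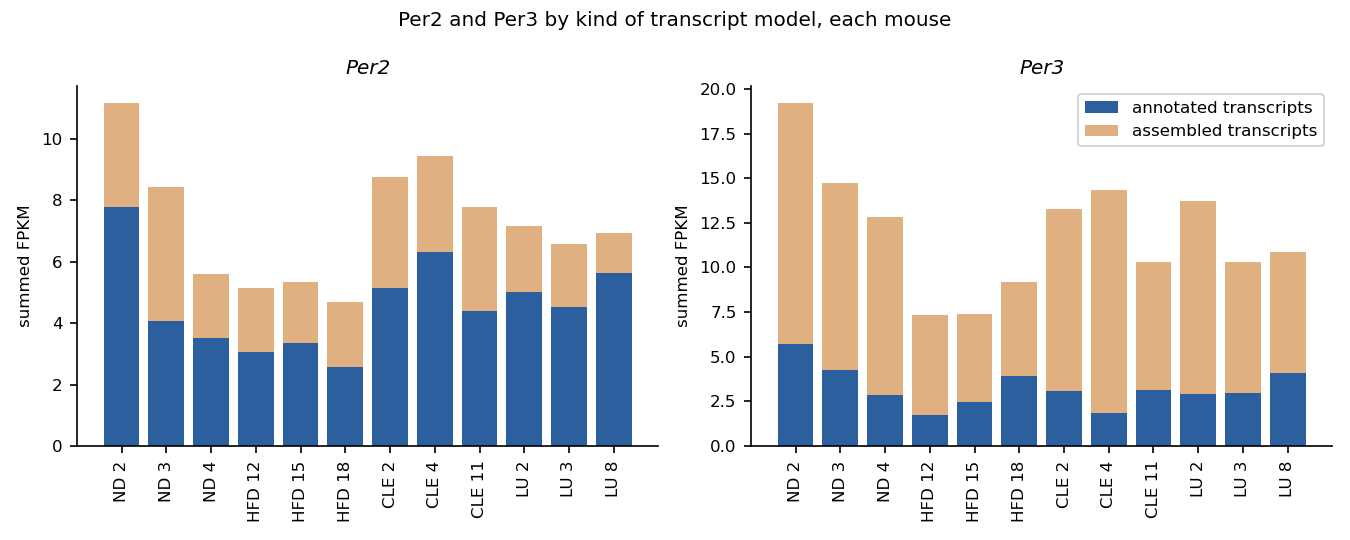
Summed FPKM (vertical axis) of Per2 and Per3 in each of the 12 mice, split into annotated transcripts (blue) and transcripts assembled from the reads (tan). The low HFD sums of Per3 lie in the assembled part, which is 4.98 to 5.56 FPKM in HFD and 6.78 to 13.5 in the other mice.

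The *Cry* genes encode the partners of PER in repression. *Cry1* (chr10:85131700-85185064, minus strand) was at 7.62, 4.09 and 5.81 FPKM in ND, 4.36, 3.66 and 3.80 in HFD, 3.54, 4.19 and 4.30 in CLE, and 4.33, 4.08 and 4.43 in LU. ND mice 2 and 4 were above the 10 others, and ND mouse 3 was among them. The log2 fold change of HFD against ND was -0.44 (SE 0.15, interval -0.78 to -0.10, adjusted p = 0.033), under a fold of 1.5. It was -0.26 (adjusted p = 0.12) without ND mouse 2 and -0.64 (adjusted p = 0.0016) without ND mouse 3, where it was called. *Cry2* (chr2:92403646-92434043, minus strand) was at 21.8, 20.7 and 24.8 FPKM in ND, 18.9, 20.5 and 21.2 in HFD, 26.8, 33.5 and 22.9 in CLE, and 25.3, 19.9 and 25.7 in LU. HFD overlapped with ND and LU and not with CLE, and its log2 fold change against ND was -0.14 (SE 0.14, interval -0.45 to 0.16).

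The output factors *Dbp* and *Tef* belong to the same family of D-box binding proteins and differed in level and pattern here. *Dbp* (chr7:45705088-45710203, plus strand), often among the most strongly cycling transcripts of a tissue, was at 2.46, 3.79 and 1.8 FPKM in ND, 2.89, 2.42 and 3.93 in HFD, 3.80, 3.53 and 3.15 in CLE, and 4.94, 3.24 and 3.48 in LU. All groups overlapped, and it was the only member with a positive value for HFD against ND, 0.17 (SE 0.20, interval -0.27 to 0.60). Its gene shares 737 bases with *Sphk2* on the opposite strand, and without strand in the library kit the reads there cannot be told apart.

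*Tef* (chr15:81802421-81826863, plus strand) was at 43.7, 38.5 and 36.7 FPKM in ND, 27.8, 29.4 and 32.0 in HFD, 44.1, 44.1 and 34.3 in CLE, and 35.5, 31.4 and 33.0 in LU. The HFD mice were below all ND and CLE mice and overlapped with LU. The log2 fold change of HFD against ND was -0.40 (SE 0.11, interval -0.65 to -0.16, adjusted p = 0.011), a fold under 1.5. The groups did not overlap for 3 of the 10 members (*Per2*, *Per3* and *Tef*), against 59.6% of all tested genes.

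The comparison of CLE with HFD asks what the extract adds to the high-fat diet. *Per2* and *Per3* rose, and they were again the members called, 2 of 10, against 16.5% of all genes called and 6.34% called higher. The mean of *Per2* was 8.66 ± 0.836 FPKM (SD, n = 3) in CLE, which is 1.71 times that of HFD, with a log2 fold change of 0.67 (SE 0.17, interval 0.30 to 1.05, adjusted p = 0.011 in limma). The mean of *Per3* was 12.6 ± 2.10 FPKM, 1.59 times that of HFD, with a log2 fold change of 0.60 (SE 0.16, interval 0.24 to 0.96, adjusted p = 0.016). Both comparisons share the HFD mice, so a low value in HFD enters each of them.

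*Tef* and *Cry2* were higher in CLE by less than a fold of 1.5 with an adjusted p under 0.05. The mean of *Tef* was 40.8 ± 5.65 FPKM (log2 fold change 0.44, SE 0.11, adjusted p = 0.011) and that of *Cry2* was 27.7 ± 5.34 (0.42, SE 0.14, adjusted p = 0.035). The value of *Cry2* was 0.28 (adjusted p = 0.14) without CLE mouse 4 and 0.35 (adjusted p = 0.062) when the letter R entered the fit. Its adjusted p in limma was also over 0.05 without HFD mouse 12 (0.11), HFD mouse 15 (0.074), HFD mouse 18 (0.062) or CLE mouse 2 (0.068). *Tef*, *Cry2*, *Per2* and *Per3* made 4 of 10 members, against 33.7% of all genes. The groups did not overlap for 5 members, the 4 named and *Arntl*, against 50.6% of all genes. The values of the other members were 0.41 for *Per1* (SE 0.33, interval -0.32 to 1.13), 0.16 for *Dbp* (-0.28 to 0.59), 0.10 for *Clock* (-0.12 to 0.33), 0.02 for *Cry1* (-0.32 to 0.36) and -0.07 for *Npas2* (-0.35 to 0.20).

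The call of *Per3* in CLE depended on single mice, on its transcript models and on other settings. It was lost without HFD mouse 12 (0.55, adjusted p = 0.058), without HFD mouse 15 (0.56, adjusted p = 0.054), without CLE mouse 2 (0.56, adjusted p = 0.05) and without CLE mouse 4 (0.51, adjusted p = 0.066), and with annotated transcripts alone the value was 0.01 (SE 0.25, adjusted p = 0.98). It was also lost with the letter R as a covariate (0.58, adjusted p = 0.031, a fold under 1.5), without the libraries with that letter (0.51, adjusted p = 0.036) and with no filter on low values (0.60, adjusted p = 0.052). *Per2* was called in all 12 fits with a library left out, with values from 0.61 to 0.74, and with annotated transcripts alone (0.65, SE 0.22, adjusted p = 0.046).

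Luteolin was compared with HFD in the same way. No member was called, against 12.5% of all genes. *Per3* was at a mean of 11.6 ± 1.83 FPKM (SD, n = 3) in LU, 1.46 times that of HFD. Its log2 fold change of 0.49 (SE 0.16, interval 0.13 to 0.85, adjusted p = 0.046 in limma) was under a fold of 1.5, and it was the only member with an adjusted p under 0.05, against 27.0% of all genes. *Per2* was at 6.89 ± 0.302 FPKM, above every HFD mouse, with 0.38 (SE 0.17, interval 0.01 to 0.76, adjusted p = 0.12). At an unadjusted p under 0.05, 2 members passed, *Per2* and *Per3*, against 39.24% of all genes.

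The other members differed less from HFD. The values were 0.39 for *Per1* (SE 0.33, interval -0.33 to 1.12), 0.26 for *Dbp* (-0.17 to 0.69), 0.21 for *Cry2* (-0.09 to 0.51), 0.16 for *Tef* (-0.09 to 0.41), 0.10 for *Cry1* (-0.24 to 0.44), -0.02 for *Clock* (-0.24 to 0.20) and -0.07 for *Npas2* (-0.35 to 0.20). LU and HFD did not overlap for *Arntl*, *Per2* and *Per3*, 3 of 10, against 47.7% of all genes.

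**Figure D3:**
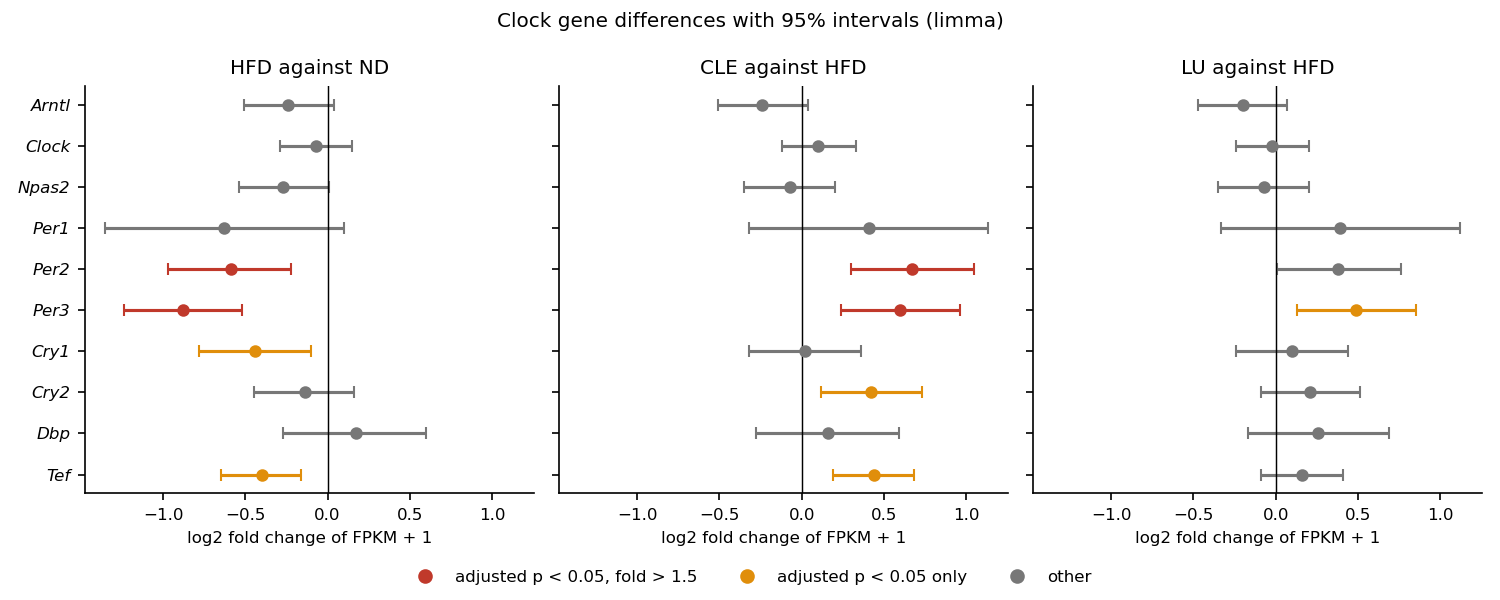
Log2 fold change of FPKM + 1 (horizontal axis) with its 95% interval from limma for the 10 clock genes in HFD against ND, CLE against HFD and LU against HFD. Red marks an adjusted p under 0.05 with a fold change over 1.5, orange an adjusted p under 0.05 alone and grey the rest; red is seen for Per2 and Per3 in the first and second panel, with opposite signs, and not in the third.

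Whether the groups on the supplemented diets differed from the lean group was tested as well. Between CLE and ND no member was called, against 2.98% of all genes, and 3 passed at an unadjusted p under 0.05, against 23.33% of all genes. These were *Arntl* (-0.48, SE 0.13, interval -0.75 to -0.20, adjusted p = 0.05 when rounded, just above the threshold), *Npas2* (-0.34, adjusted p = 0.13) and *Cry1* (-0.42, adjusted p = 0.13). *Per2* was at 0.08 (interval -0.30 to 0.46), *Tef* at 0.04 (-0.21 to 0.28) and *Per3* at -0.28 (-0.64 to 0.08), intervals that include no difference and also differences of some size. Without ND mouse 3, 2 members were called, *Arntl* (-0.59) and *Cry1* (-0.62).

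Between LU and ND no member was called either, against 6.56% of all genes. *Arntl* was lower by less than a fold of 1.5 (-0.44, SE 0.13, interval -0.71 to -0.16, adjusted p = 0.042), and all LU mice were below all ND mice. *Npas2*, *Per3* and *Cry1* passed at an unadjusted p under 0.05 alone, with -0.34, -0.39 and -0.34, which with *Arntl* made 4 of 10 members against 27.71% of all genes.

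Between CLE and LU no member was called, against 0.00781% of all genes. *Tef* was higher in CLE at an unadjusted p of 0.03 (0.28, SE 0.11, interval 0.03 to 0.53, adjusted p = 0.90), and *Per2* was above LU in every CLE mouse (0.29, interval -0.09 to 0.67, adjusted p = 0.90). Of all genes, 5.22% had an unadjusted p under 0.05 in this comparison, so 1 of 10 members is not many. The interval of *Per3* was -0.25 to 0.47, and the calls in CLE and not in LU are no evidence that the supplements differ.

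Beside the members, a list of 24 genes linked to the clock was examined. It held loop receptors and repressors, *Hlf*, *Arntl2*, *Timeless*, kinases, ligases and output genes such as *Wee1*. Of these, 23 were tested and *Rorb*, at up to 0.0529 FPKM, was too low. Of the 23, 2 were called higher and 1 lower in HFD than in ND, 2 higher and 2 lower in CLE than in HFD, and 1 higher and 2 lower in LU than in HFD. Their median log2 fold changes were -0.16, 0.07 and 0.09, beside -0.02, 0.01 and 0.03 for all genes. The shares of 3, 4 and 3 of 23 can be set against the 25.7%, 16.5% and 12.5% of all genes called. None of them was called in CLE or LU against ND in limma, where 2 had an unadjusted p under 0.05 in each, against 23.33% and 27.71% of all genes.

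The REV-ERB receptors repress *Arntl* and its partners. *Nr1d1* (REV-ERB alpha) was at 32.7, 37.7 and 26.6 FPKM in ND, 24.1, 15.3 and 22.1 in HFD, 61.1, 66.7 and 44.3 in CLE, and 57.3, 32.8 and 35.6 in LU. The HFD mice were below the 9 others, and the CLE mice were above all ND and HFD mice. It fell by 0.64 in HFD against ND (SE 0.24, adjusted p = 0.039 in limma), and rose by 1.44 in CLE (SE 0.24, adjusted p = 0.00078) and by 0.98 in LU (SE 0.24, adjusted p = 0.011) against HFD. The fall was not called without ND mouse 2 or 3 or HFD mouse 15 or 18 (-0.45 to -0.71), nor with the letter R as a covariate (-0.41, adjusted p = 0.20). The call was also lost with no filter (-0.64, adjusted p = 0.11) and with array weights (-0.57, adjusted p = 0.057). It was lost with the transcript of highest mean (-0.61, adjusted p = 0.099) and with annotated transcripts alone (-0.62, adjusted p = 0.087). Without the libraries with the letter R, which leaves 1 ND mouse, the value was -0.67 and the call was lost as well. *Nr1d1* shares 1075 bases with *Thra* on the opposite strand, which was at a mean of 62.0 FPKM, and reads there cannot be told apart.

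*Nr1d2* (REV-ERB beta) was at 19.9, 16.9 and 10.7 FPKM in ND, 14.8, 10.2 and 14.0 in HFD, 19.9, 24.2 and 19.6 in CLE, and 21.8, 20.0 and 15.4 in LU. All CLE and LU mice were above all HFD mice, and ND overlapped with both sides. It rose in CLE against HFD (0.68, SE 0.21, adjusted p = 0.027), a call lost without HFD mouse 15 (0.53) or CLE mouse 4 (0.59). That call was also lost with no filter (0.68, adjusted p = 0.088) and with the transcript of highest mean (0.54, adjusted p = 0.10). With annotated transcripts alone it was lost too (0.55, adjusted p = 0.088). The value of *Nr1d2* was 0.53 (adjusted p = 0.085) in LU against HFD and -0.25 (adjusted p = 0.35) in HFD against ND.

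The DEC factors compete for E-boxes and repress the BMAL1 pair. *Bhlhe40* (DEC1), also induced by low oxygen, was at 4.86, 5.60 and 4.50 FPKM in ND, 14.1, 12.2 and 12.7 in HFD, 5.20, 4.75 and 10.2 in CLE, and 8.80, 5.45 and 8.05 in LU. The HFD mice were above the 9 others, and CLE mouse 11 was the nearest to them. It rose in HFD against ND (1.23, SE 0.23, adjusted p = 0.00092) and fell by 0.92 in CLE (SE 0.23, adjusted p = 0.0088) and by 0.75 in LU (SE 0.23, adjusted p = 0.03) against HFD. The call in CLE was lost without the libraries with the letter R (-0.75). The call in LU was lost without LU mouse 3 (-0.57) or any of the HFD mice (-0.69 without mouse 12, -0.79 without mouse 15 and -0.77 without mouse 18). It was also lost with the letter R as a covariate (-0.74, adjusted p = 0.053) and with no filter (-0.75, adjusted p = 0.099).

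*Bhlhe41* (DEC2) was at 2.89, 2.18 and 1.68 FPKM in ND, 4.49, 3.94 and 4.82 in HFD, 2.80, 2.46 and 3.32 in CLE, and 2.90, 2.04 and 2.91 in LU. The HFD mice were again above the 9 others. It rose in HFD against ND (0.75, SE 0.15, adjusted p = 0.0015). Without the libraries with the letter R, which leaves 1 ND mouse, that value was 0.47, under a fold of 1.5. *Bhlhe41* fell by 0.59 in LU against HFD (SE 0.15, adjusted p = 0.013), a call lost without HFD mouse 12 or 18 or LU mouse 3. The call in LU was also lost with the letter R as a covariate (-0.54, adjusted p = 0.027) and with array weights (-0.56, adjusted p = 0.0055). With the transcript of highest mean it was lost too (-0.49, adjusted p = 0.078). Its value in CLE against HFD was -0.49 (SE 0.15, adjusted p = 0.025), under a fold of 1.5 on the log2(FPKM + 1) scale. With 0.1 in place of 1 added to the FPKM, *Bhlhe41* was called in CLE as well (-0.62, adjusted p = 0.036). *Wee1*, a kinase of the cell cycle under E-box control, was at 3.36, 2.64 and 3.02 FPKM in ND, 5.06, 5.44 and 4.45 in HFD, 2.34, 2.80 and 2.18 in CLE, and 2.80, 2.92 and 3.48 in LU. *Wee1* fell by 0.80 in CLE against HFD (SE 0.11, adjusted p = 0.00022), and all HFD mice were above the 9 others. Its values were 0.58 in HFD against ND (SE 0.11, adjusted p = 0.00095) and -0.56 in LU against HFD (SE 0.11, adjusted p = 0.0034). Both were under a fold of 1.5 on the log2(FPKM + 1) scale. With 0.1 added instead, both were called, at 0.71 (adjusted p = 0.0012) and -0.68 (adjusted p = 0.0046).

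The remaining named genes were not called in the comparisons with ND or HFD on the log2(FPKM + 1) scale. *Nfil3*, whose product competes with DBP and TEF for D-boxes, had log2 fold changes of -0.13 in HFD against ND, -0.32 in CLE and -0.21 in LU against HFD, with adjusted p of 0.48, 0.12 and 0.31. From its transcript of highest mean alone, the value in HFD against ND was 0.69 (SE 0.42, adjusted p = 0.21), of the opposite sign. *Hlf*, the third member of the family of DBP and TEF, was at -0.44 (adjusted p = 0.029) in HFD and 0.44 (adjusted p = 0.041) in CLE, both under a fold of 1.5 on the log2(FPKM + 1) scale, and at 0.19 (adjusted p = 0.37) in LU. With 0.1 in place of 1 added to the FPKM, both were called, at -0.75 (adjusted p = 0.021) and 0.73 (adjusted p = 0.035). The value in CLE was 0.62 without CLE mouse 2, where it was called, and 0.27 without CLE mouse 4. *Ciart*, a repressor of the BMAL1 pair, was at a mean of at most 1.05 FPKM in any group and at -0.16, -0.11 and 0.20.

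**Figure D4:**
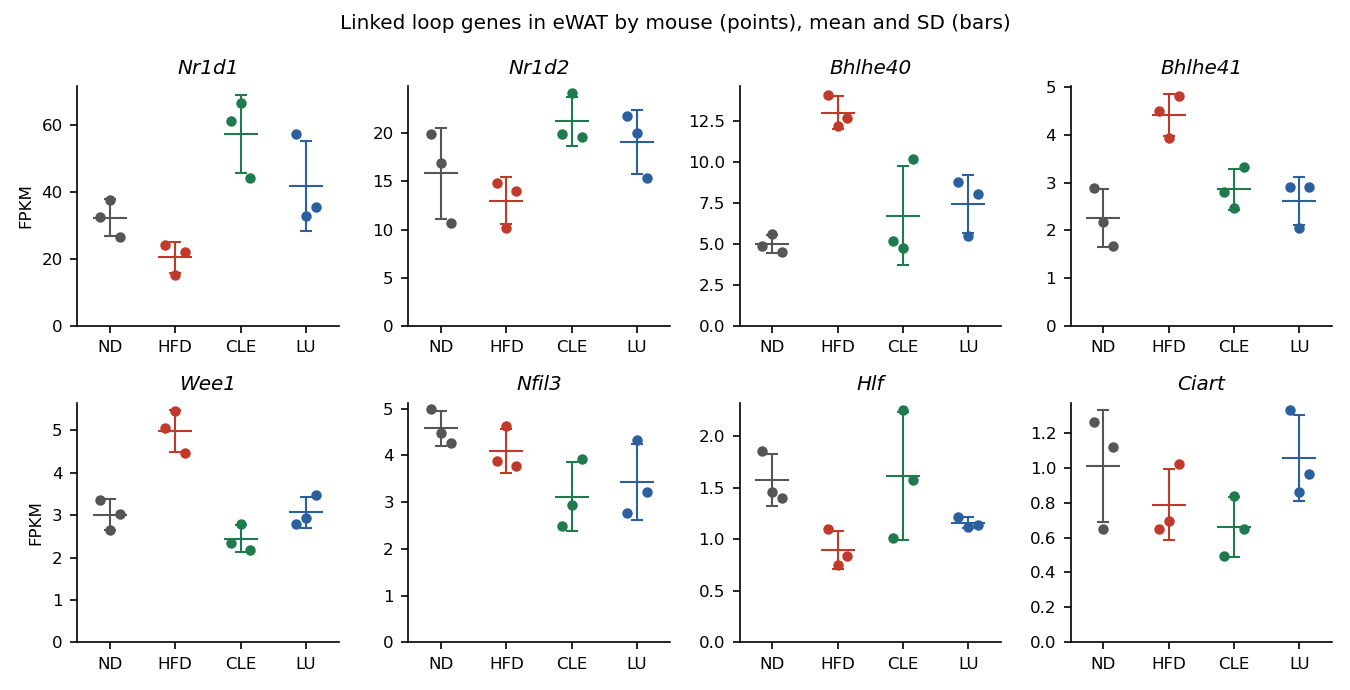
FPKM (vertical axis, from 0) of 8 genes linked to the clock loop in each group, with 1 point per mouse, a horizontal line at the mean and bars of 1 SD (n = 3). The 3 HFD mice are the lowest for Nr1d1 and the highest for Bhlhe40, Bhlhe41 and Wee1.

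*Arntl* and several of its targets are known to peak at different times of day. The deviations of log2(FPKM + 1) from the group mean were compared between *Arntl* and each of the 9 other members over the 12 mice. *Dbp*, which peaks opposite to *Arntl* in many tissues, had Pearson's r of -0.33 (exact permutation within groups, p = 0.54, adjusted p = 0.60 over the 9) and Spearman's rho of -0.15 (exact p = 0.74, adjusted p = 0.83). Without the 2 mice whose *Arntl* lay farthest from the median, ND mice 2 and 3, r was -0.03.

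The highest values were with *Cry1* and *Npas2*. For *Cry1*, r was 0.86 (exact permutation p = 0.025, adjusted p = 0.17) and rho 0.67 (exact p = 0.069, adjusted p = 0.30), and without those 2 mice r was 0.63. For *Npas2*, r was 0.76 (exact permutation p = 0.038, adjusted p = 0.17) and rho 0.62 (exact p = 0.10, adjusted p = 0.30), and without those mice r was 0.46. Neither passed the correction over the 9 partners. The other 6 partners had r of 0.06 to 0.60 (exact permutation, adjusted p of 0.47 to 0.85).

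**Figure D5:**
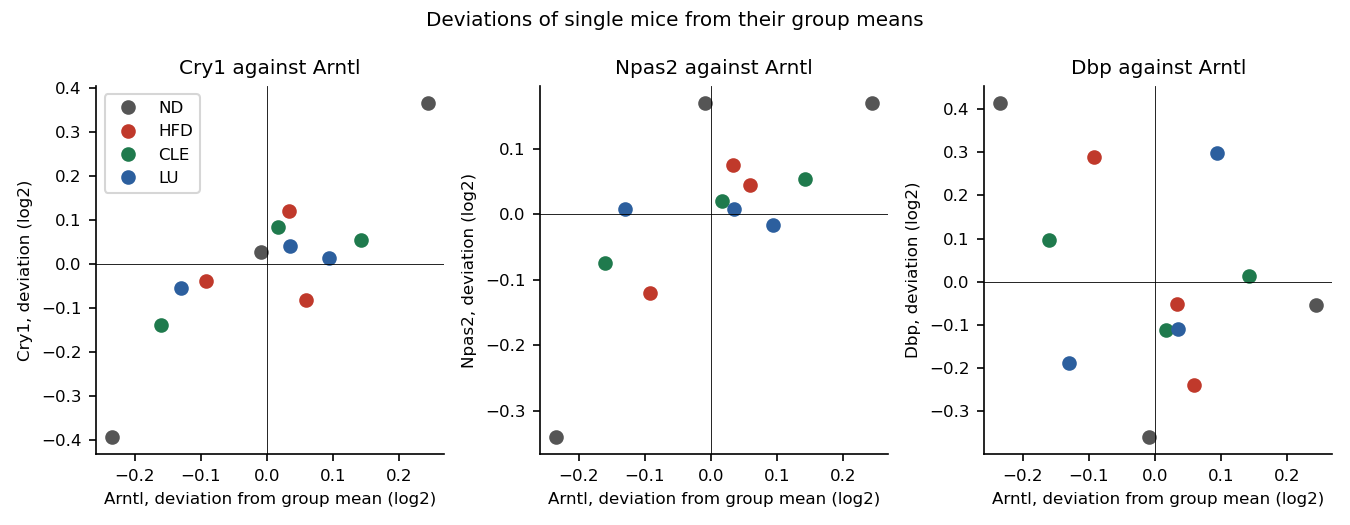
Deviation of each mouse from its group mean on the log2(FPKM + 1) scale, for Arntl (horizontal axis) against Cry1, Npas2 and Dbp (vertical axes), with colours for the groups. The ND mice 2 and 3 lie at the ends for Cry1 (r = 0.86 with them, 0.63 without), and Dbp shows no line (r = -0.33).

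The tested genes whose pattern was most like that of *Arntl* over the 12 libraries, by Pearson's r of log2(FPKM + 1), were *Mdm1* (0.939), *Reln* (0.907), *Pcbp2* (0.901), *Kdm3a* (0.883) and *Unc93a2* (0.882). By deviations from group means they were *Pwp1* (0.955), *Srek1* (0.945), *Reln* (0.943), *Zfp747* (0.939) and *Lime1* (0.937), so *Reln* was in both. For *Dbp*, genes of this kind were *Cd209d* (0.816), *Vti1a* (0.785), *Lzts1* (0.76) and *Stk3* (0.735) over the libraries. By deviations they were *Pus10* (0.947), *Ranbp3l* (0.889), *Garnl3* (0.88), *Atp5s* (0.88) and *Lin9* (0.876). These are the extremes of 12801 genes over 12 points that share group differences and normalization, and they are a description.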

How the data were processed

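RNA of eWAT from 3 mice of each of 4 groups was analysed, 12 libraries in all. Groups came from the sample titles, and the column of ND mouse 4, headed with another prefix, was assigned by inference. The submitters' processing notes name CASAVA 1.8.2, Bowtie2 2.2.3, TopHat2 2.0.12 and Cufflinks 2.2.1, and the paper names a TruSeq RNA kit. The genome build is not given in the sources used here. The authors deposited FPKM values for 152210 transcripts, from the annotation or assembled from the reads. The table has 15 FPKM columns. The 3 that fit none of the samples were left aside, as were the columns of the authors' own comparisons. Reads cannot be recovered from these FPKM, since low values such as 0.0002 FPKM for a Per3 transcript are fractions of a read.

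Transcripts with an Ensembl identifier, annotated or assembled as a variant of one, were summed to 22983 genes of GENCODE M21 (GRCm38), which lists 77000 of the 78786 known transcripts, 87.6% of them with identical ends. Of the transcripts summed, 1908 were placed by the gene identifier that the authors gave. Another 9326 transcripts of other kinds were left out, as were 560 with no gene in GENCODE. Totals over genes were 437161 to 457014 FPKM, the median ratio of a library to the mean library was 0.967 to 1.03, and r between mice of a group was 0.978 to 0.992.

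Genes at 1 FPKM or more in 3 libraries or more, 12801 in number, were tested with limma 3.58.1 (R 4.3.3) on log2(FPKM + 1), with 1 coefficient per group, 8 residual degrees of freedom and no covariate. P-values set a group difference against the spread between these mice, pooled over the groups and moderated over all tested genes. The mice were picked as representative, so the p-values do not cover the spread of the full groups. Python 3.11.15 with numpy 2.4.6, pandas 2.3.3 and, for plots, matplotlib 3.10.9 was used. The script was checked by a self-test with known answers. Members and lists were chosen with earlier results of these data known. Beside the members, the genes named are Nr1d1, Nr1d2, Bhlhe40, Bhlhe41, Nfil3, Hlf, Ciart and, per comparison with HFD or ND, the 4 called genes of the list of other clock genes with the largest change. The results of 2 genes are not reported here. Overlapping or antisense genes, the pairing of mouse numbers and the other settings were checked. The replicate numbers in the titles name different mice. Alternatives were another pseudocount, filters, scalings, a fit of the compared groups, a trend, array weights, the letter R, transcript choices and leaving out each library.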

Additional observations from a re-analysis of the deposited data

How the results depend on the processing

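Of 1145 log2 fold changes of the named genes under other settings, 1072 kept their direction and side of the call, 26 reversed, 24 lost the call and 23 gained it. Of 1008 values with a library left out these were 956, 24, 20 and 8. Leaving out a library of a group outside a comparison cannot change its fold change, and a value without a call cannot lose one. These counts therefore do not measure how stable the calls were. The call of Nr1d1 in HFD against ND was lost in 10 settings, that of Per3 in CLE against HFD in 8 and that of Per2 in CLE against HFD in 0. The causes of the changes were not tested. For HFD against ND, where 2 members were called, the count was 1 with array weights, 4 without the libraries with the letter R (which leaves 1 ND mouse), 4 by adjusted p alone, 1 with the transcript of highest mean and 0 with annotated transcripts alone. For CLE against HFD, with 2, it was 1 without a filter, 1 with the letter R as a covariate, 1 without those libraries, 4 by adjusted p alone and 1 with annotated transcripts alone. For LU against HFD, with 0, it was 1 by adjusted p alone and 1 with the transcript of highest mean. For LU against ND, with 0, it was 3 without the libraries with the letter R and 1 by adjusted p alone. With a library left out, the count was 1 to 2 for HFD against ND (1 without ND mouse 2 or HFD mouse 18), 1 to 2 for CLE against HFD (1 without HFD mouse 12 or 15 or CLE mouse 2 or 4) and 0 to 2 for CLE against ND (2 without ND mouse 3). With a mean of at least 5 FPKM as filter, the low members were not tested.

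Some values changed sign. With the transcript of highest mean these were Clock in HFD against ND (0.20) and in LU against ND (0.05), Dbp in CLE against HFD (-0.01), Per2 (0.05) and Per3 (0.08) in LU against ND, Npas2 (0.05), Per1 (-0.09) and Per3 (-0.15) in CLE against LU, Nfil3 in HFD against ND (0.69) and the correlation of Arntl and Clock (-0.04). With annotated transcripts alone they were Clock (0.20) and Nr1d2 (0.04) in HFD against ND, Clock (0.05) and Per2 (0.05) in LU against ND and Per3 in CLE against LU (-0.24). Without the libraries with the letter R they were Cry1 in CLE against HFD (-0.01), Clock (-0.03), Per2 (-0.39) and Tef (-0.16) in CLE against ND, and Per1 (-0.16) and Dbp (0.03) in CLE against LU. In CLE against LU, Npas2 was at 0.02 with equal totals, 0.02 with median ratios, 0.05 with quantile normalization and 0.01 with array weights, and Arntl was at 0.01 with quantile normalization. Per1 in CLE against ND was at 0.08 with array weights.

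With a library left out, ranges that crossed 0 were -0.02 to 0.09 for Cry1 in CLE against HFD, -0.09 to 0.06 for Clock in LU against HFD and -0.01 to 0.37 for Dbp in HFD against ND. In CLE against ND they were -0.02 to 0.15 for Tef, -0.01 to 0.10 for Clock, -0.15 to 0.29 for Per2 and -0.44 to 0.17 for Per1, and in LU against ND -0.44 to 0.16 for Per1. In CLE against LU they were -0.03 to 0.04 for Npas2, -0.21 to 0.18 for Per1, -0.11 to 0.04 for Arntl and -0.20 to 0.04 for Dbp. The correlation of Arntl ranged from -0.09 to 0.24 with Clock, -0.15 to 0.81 with Per2 (lowest without ND mouse 2), -0.53 to 0.15 with Dbp (highest without ND mouse 3) and -0.07 to 0.50 with Tef.

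Mice with the same number in different groups did not deviate together (r of -0.10 to 0.19 over genes in 5 pairs). A fit with the replicate block called 0 members in CLE against ND and 0 in LU against ND, as without it. That fit left few residual degrees of freedom and had little power to call a member, so its count cannot tell whether pairing matters. No paired analysis was possible for the comparisons with HFD, because its mouse numbers are not shared. The depth is unknown, so what it limits cannot be stated.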

Other observations

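Ratios between members were looked at after their values were seen, and no test was run on them. Per3 was at 0.933 to 1.3 times Arntl in HFD, 1.41 to 1.94 times in ND, 1.62 to 2.39 times in CLE and 1.62 to 1.96 times in LU, with HFD below the 3 other groups. Arntl was at 0.0906 to 0.144 times Nr1d1 in CLE and 0.122 to 0.188 times in LU, below the 0.202 to 0.341 of ND and the 0.320 to 0.521 of HFD. The ratio of Arntl to Dbp was 2.01 to 5.03 in ND and 1.8 to 3.29 in HFD, with overlap, and 1.46 to 2.02 in CLE and 1.42 to 1.92 in LU.

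Csnk1d, a kinase that marks PER proteins for destruction and whose values were looked at because of a single mouse, was at 81.7 FPKM in CLE mouse 2 and at 41.1 to 47.6 in the 11 other mice.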
